A study of Homo sapiens with 4 samples.

Results

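Accessible chromatin was examined at 7 genes of the hemidesmosome and of laminin-332, out of 19748 protein-coding genes on the autosomes and X: LAMA3, LAMB3, COL17A1, ITGA6, ITGB4, DST and PLEC. The genes were chosen by name. Every ATAC-seq peak was taken that lay in the body of one of them or within 100 kb of its first annotated transcription start site, which gave 78 of the 60886 accessible regions found in the genome. MCF10A cells, an immortalized line from human mammary epithelium that is not transformed, served here as the parental cells. G12V cells derive from them by viral transfer of an HRAS oncogene that carries G12V, followed by drug selection. Each cell type had 2 libraries, the cells of both grew in the same medium with epidermal growth factor, insulin, hydrocortisone and cholera toxin, and the question was which loci were open in one cell type and not in the other. The study describes the replicates as biological.

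Hemidesmosomes fasten basal epithelial cells to the basement membrane. Outside the cell lies laminin-332, a trimer that holds the LAMA3 and LAMB3 chains. It is bound by the integrin of ITGA6 and ITGB4 and by the transmembrane collagen COL17A1, and inside the cell the plakins encoded by DST and PLEC tie these receptors to keratin filaments. Inherited loss of the components causes blistering of the skin, and in mammary epithelium the same complex anchors basal and myoepithelial cells.

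The 4 peak lists were unequal. They held 12902 and 34484 peaks in MCF10A replicates 1 and 2, and 14057 and 46698 in G12V replicates 1 and 2, so replicate 2 was the longer list in both cell types. The number of reads behind them is not known here, and a missing peak says only that the locus did not pass the caller's threshold in that library. As a check of the labelled cell type, promoters of 6 epithelial markers had peaks for 0, 1, 0 and 0 genes in MCF10A 1, MCF10A 2, G12V 1 and G12V 2, so KRT5, KRT14, KRT18, CDH1 and TP63 had none. Over all genes the shares were 24.8%, 48%, 26.8% and 50.6%. Of 5 mesenchymal markers 0, 2, 1 and 1 had one, and of 4 haematopoietic and 2 endothelial markers none had one in any library. In a bulk library, fewer cells with an open locus and a locus less open in every cell cannot be told apart.

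Peaks of different libraries that overlapped by 1 bp or more were joined into 1 region. A region was called gained if both G12V libraries and no MCF10A library had a peak there, lost in the opposite case, and shared if all 4 had one. The strength of a peak is given as the percentile of its score within its own library's list, so 90 means that 90% of that library's peaks scored no higher. The lists differ in length, so equal percentiles in different libraries do not mean equal ranks. Distances are from the first start of the gene, positive in the direction of transcription. A promoter runs from 1000 bp upstream to 500 bp downstream of any annotated start of a protein-coding gene.

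A selection of regions is shown first, as 150 bases of the plus strand of hg19 (GRCh37). Each is from the middle of the best peak or from just before a start site. The lost region and some shared ones are not among them. Capitals mark exact matches to the AP-1 motif (TGACTCA or TGAGTCA) or to the TEAD motif (GGAATGT, on the other strand ACATTCC). The first 3 are the gained regions, the next 3 are regions open in 3 or 4 libraries, and the last lies just upstream of a start with a peak in MCF10A replicate 2 alone.
LAMB3 gained +75 kb (chr1:209750338-209750487): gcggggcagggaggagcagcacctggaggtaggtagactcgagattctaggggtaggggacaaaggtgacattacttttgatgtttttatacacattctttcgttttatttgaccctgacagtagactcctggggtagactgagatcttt
ITGB4 gained -14 kb (chr17:73703378-73703527): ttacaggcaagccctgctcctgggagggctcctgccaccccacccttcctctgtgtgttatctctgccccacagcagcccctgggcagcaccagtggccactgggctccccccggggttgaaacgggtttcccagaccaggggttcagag
DST gained +240 kb (chr6:56579903-56580052): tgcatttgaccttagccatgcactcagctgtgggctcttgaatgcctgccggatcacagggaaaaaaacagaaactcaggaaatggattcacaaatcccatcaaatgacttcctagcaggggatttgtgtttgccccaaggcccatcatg
LAMB3 shared -5 kb (chr1:209830841-209830990): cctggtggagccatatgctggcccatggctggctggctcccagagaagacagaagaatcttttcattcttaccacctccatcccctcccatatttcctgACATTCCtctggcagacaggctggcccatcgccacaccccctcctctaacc
DST shared +16 kb (chr6:56803658-56803807): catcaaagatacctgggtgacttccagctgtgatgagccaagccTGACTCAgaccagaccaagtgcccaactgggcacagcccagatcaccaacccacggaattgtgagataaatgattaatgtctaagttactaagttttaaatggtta
ITGA6 intron +15 kb (chr2:173306939-173307088): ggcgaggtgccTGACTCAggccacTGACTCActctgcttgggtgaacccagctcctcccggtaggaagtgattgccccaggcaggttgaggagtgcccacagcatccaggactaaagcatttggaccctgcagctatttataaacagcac
LAMA3 upstream of internal start (chr18:21452834-21452983): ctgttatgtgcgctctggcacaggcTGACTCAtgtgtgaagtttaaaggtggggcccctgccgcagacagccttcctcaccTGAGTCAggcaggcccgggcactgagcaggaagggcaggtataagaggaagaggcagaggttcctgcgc
The 3 gained windows held no match to either motif. Of all regions in the genome, 15.9% held an AP-1 and 3.28% a TEAD match. Of the 10 gained, lost and shared regions at the 7 loci, 2 held an AP-1 and 1 a TEAD match. The lost region at the ITGB4 promoter, not shown, held TGACTCA at chr17:73717471-73717477, inside the peak of MCF10A replicate 2 only.

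**Figure D1:**
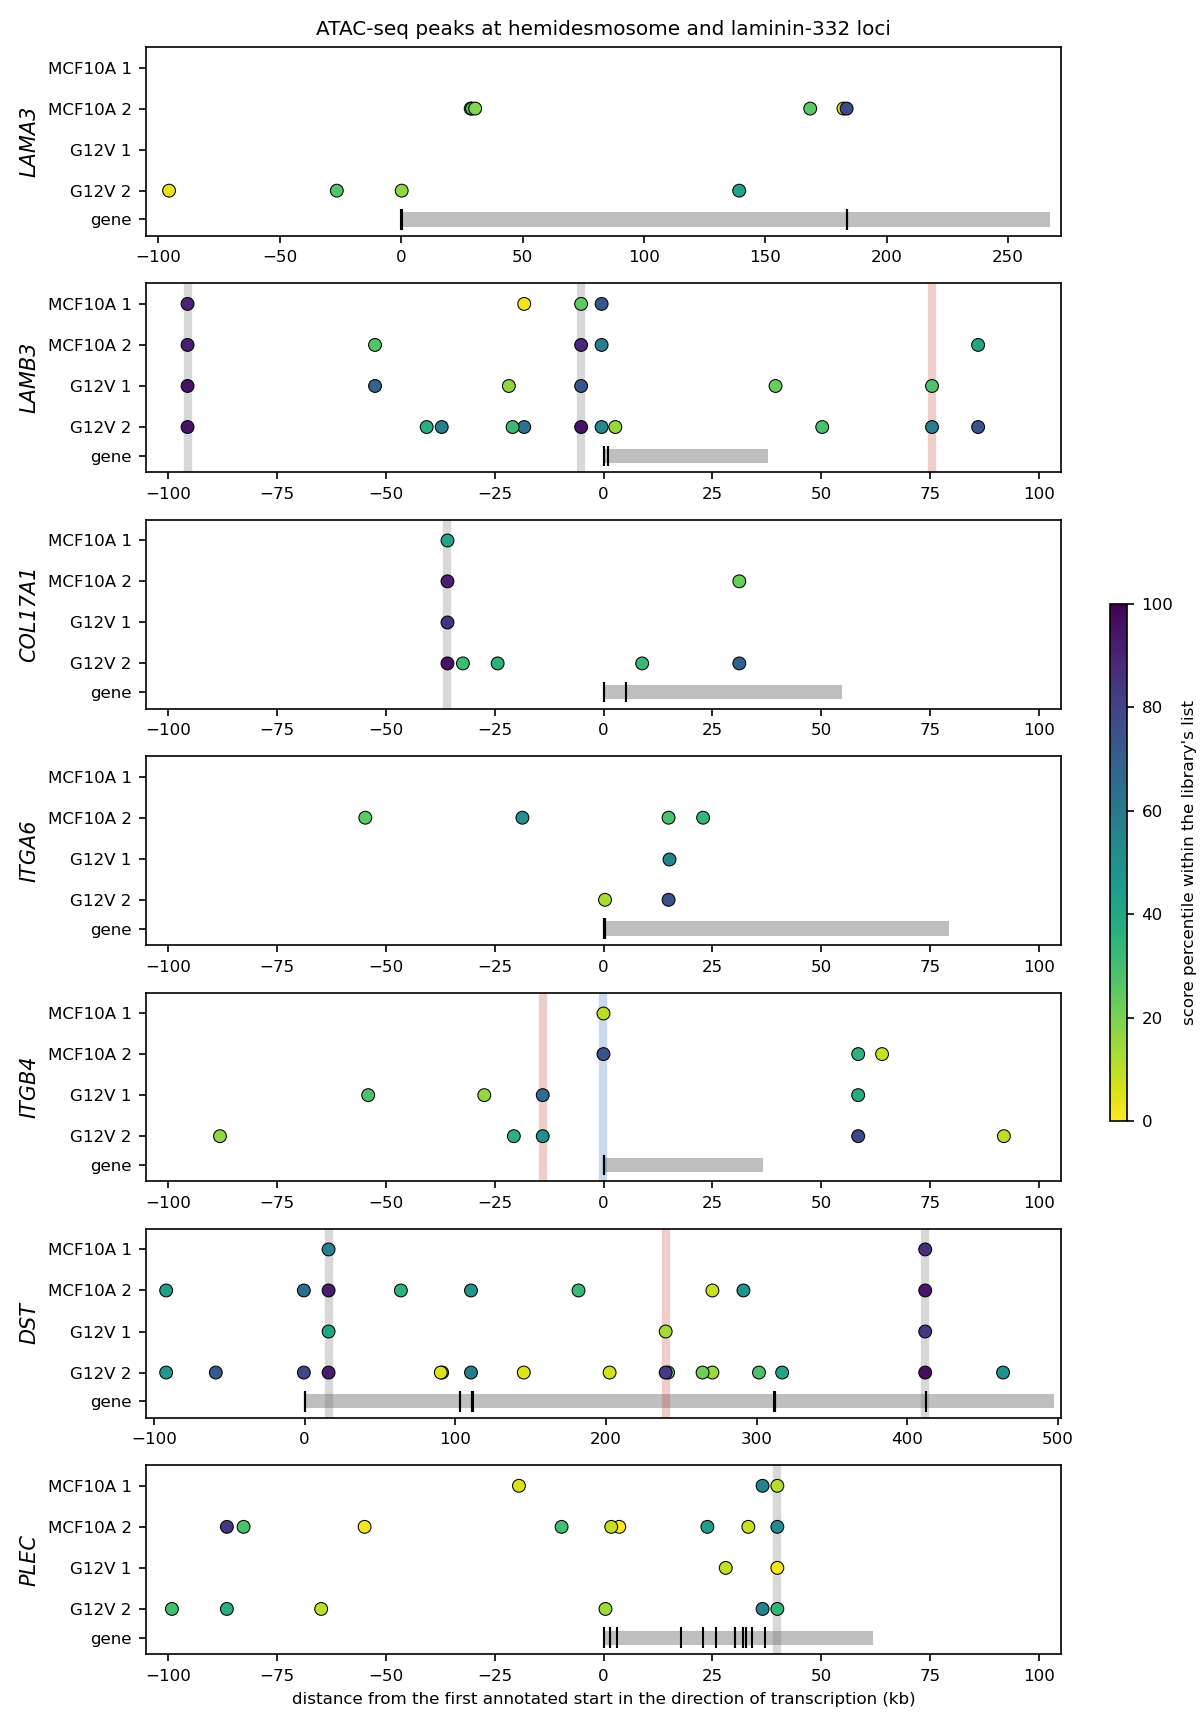
Peaks at the 7 loci, 1 panel per gene. The x axis is the distance from the first annotated start in kb, each row is a library, each point is an accessible region with its colour giving the score percentile, the grey bar is the gene body and the black ticks are starts of GENCODE basic transcripts. Vertical bands mark gained (red), lost (blue) and shared (grey) regions. Most points stand in 1 row only, and the DST and LAMB3 loci hold 2 grey bands each.

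Across the 78 regions, 3 were gained, at LAMB3, ITGB4 and DST, and 1 was lost, at the ITGB4 promoter. These are 3.85% and 1.28% of the regions, where 3.2% of all regions in the genome were gained and 2.14% were lost. Another 6 regions (7.69%) were shared, 2 each at LAMB3 and DST and 1 each at COL17A1 and PLEC, against 8.36% in the genome. The shares of the 3 classes at these loci thus stood near those of the genome.

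Most regions were seen once. A peak in a single library made up 55 of the 78 regions (70.5%, against 56.4% of all regions), 29 of them in G12V replicate 2, 20 in MCF10A replicate 2, 5 in G12V replicate 1 and 1 in MCF10A replicate 1. A further 7 were in replicate 2 of both cell types and in no other library. In 3 regions (3.85%, against 1.47% in the genome) the peak was in 1 library of each cell type with different replicate numbers, a pattern that follows neither cell type nor replicate number. By gene, 3 of the 7 had a gained region at the locus (16% of all genes), 1 had a lost region (9.99%) and 4 had a shared one (39.1%). A locus with more regions has more chances of each class. The 7 loci held 5 to 20 regions each, where the median gene had 6, so these shares by gene are not compared at like numbers of regions.

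Promoter peaks were found at 4 of the 7 genes in MCF10A replicate 1 (24.8% of all genes), at 5 in MCF10A replicate 2 (48%), at 1 in G12V replicate 1 (26.8%) and at 5 in G12V replicate 2 (50.6%). LAMB3, ITGB4, DST and PLEC had one in MCF10A replicate 1, DST alone in G12V replicate 1. In replicate 2, LAMA3, LAMB3, DST and PLEC had one in both cell types, ITGB4 in MCF10A alone and ITGA6 in G12V alone. DST was the single gene with a promoter peak in all 4 libraries (16.9% of all genes), and ITGB4 the single one with promoter peaks in both MCF10A and no G12V library (0.522%). The DST peak lay at starts 412.0 and 412.6 kb into the gene, and no other start of DST had a peak in all 4 libraries. DST has 20 annotated starts, the most of the 7 genes, and so more chances of such a peak. With the first or the canonical start of each gene alone, the count was 0. No member had the gained promoter pattern (0.911%), and COL17A1 had no promoter peak in any library (43.1%).

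**Figure D2:**
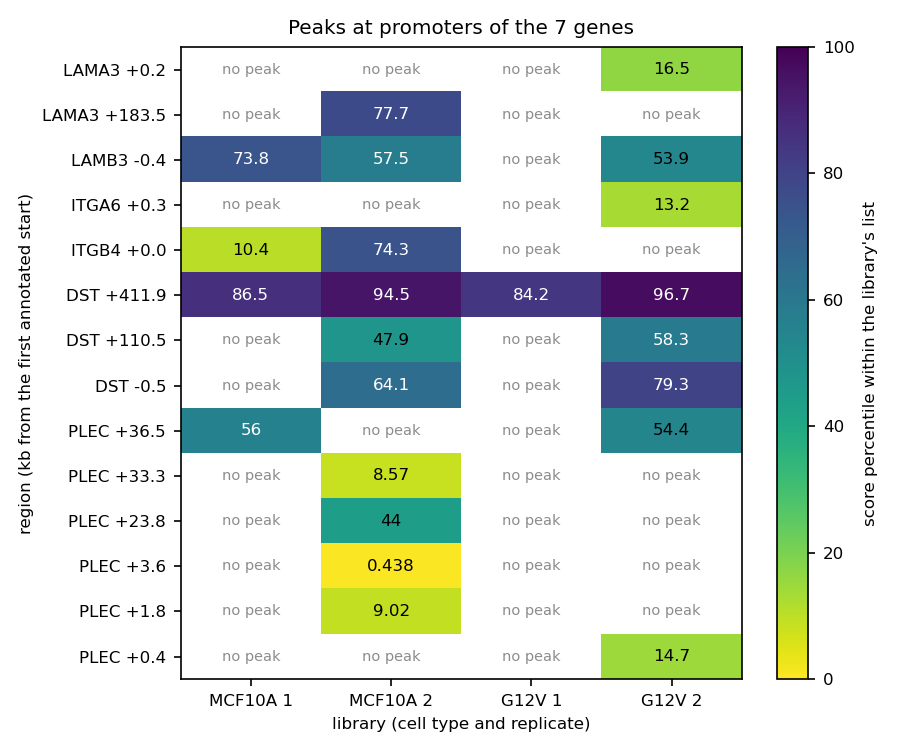
Score percentile of the peak in each library (columns) at the 14 regions that overlap a promoter of the 7 genes (rows, named by gene and distance in kb from the first start). Blank cells are libraries with no peak. The DST region at +411.9 kb is filled in all columns, and the ITGB4 row is filled in the 2 MCF10A columns only.

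ITGB4, the integrin chain found in hemidesmosomes, lies at chr17:73717408-73753899 on the plus strand and had 9 regions. The lost region, chr17:73716944-73717834, covered the first start and part of the 5′ untranslated exon. Only the peak of MCF10A replicate 2, chr17:73716989-73717834, ran over the start itself. That of MCF10A replicate 1 ended at 73717392, upstream of the start but inside the promoter. Its peak was at percentile 10.4 in MCF10A replicate 1 (score 46.5, where 40 is the lowest score of any list) and at 74.3 in MCF10A replicate 2 (score 111.4). Neither G12V library had a peak there. G12V replicate 2 had the longest list of all, and the part of list length or depth in the missing peaks was not tested. The first MCF10A value was thus close to the threshold and the second was well above it. When only the better-scoring 50% of each list was kept, the region was in MCF10A replicate 2 alone, and with equal list sizes it was in both MCF10A libraries and still in no G12V library.

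The gained region of this locus lay at -14.0 kb, chr17:73703054-73703835, between genes and with ITGB4 as the nearest start. Its percentiles were 64.6 in G12V replicate 1 and 50.9 in G12V replicate 2, and no MCF10A library had a peak. It was the most even of the 3 gained regions and the strongest region of the locus by mean percentile outside promoters. With equal list sizes it was kept in G12V replicate 1 only. On chromosome 17 as a whole 67 regions were gained and 13 lost, so gained regions made up 83.8% of the 2 classes there against 60% in the genome. The part of that imbalance in the ITGB4 values was not tested. Chromosome 18, which holds LAMA3, had 22 gained and 33 lost regions (40% gained).

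The other 7 regions at ITGB4 were of lower or mixed presence. The promoter of the histone gene H3-3B at +58.5 kb had peaks in 3 libraries, at percentiles 35.6 in MCF10A replicate 2, 38.2 in G12V replicate 1 and 78.2 in G12V replicate 2. The other 6 were each in 1 library. No peak was found inside the ITGB4 gene downstream of the promoter region in any library.

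ITGA6, the partner of ITGB4 in the hemidesmosomal integrin (chr2:173292082-173371187, plus strand), had 5 regions and no gained, lost or shared one. Its promoter had a peak in G12V replicate 2 only, at percentile 13.2. The strongest region lay in an intron at +14.9 kb, chr2:173306754-173307274, with no peak in MCF10A replicate 1, 28.6 in MCF10A replicate 2, 55.2 in G12V replicate 1 and 75.1 in G12V replicate 2. Both G12V percentiles were above the MCF10A one. With equal list sizes, or with the better-scoring 50% of each list, the MCF10A peak fell out and the region met the gained pattern. Its window held a pair of AP-1 matches, TGACTCA at chr2:173306950-173306956 and at chr2:173306963-173306969. The remaining 3 regions were in MCF10A replicate 2 alone.

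Among the laminin-332 chains, LAMB3 (chr1:209788215-209825770, minus strand) had the fullest record, with 14 regions. That is 7 per 100 kb of locus, where the median gene had 2.5 and 98.5% of all genes had as many or fewer. Its promoter region, chr1:209825369-209827061, was at percentile 73.8 in MCF10A replicate 1, 57.5 in MCF10A replicate 2 and 53.9 in G12V replicate 2, and absent in G12V replicate 1. A TGAGTCA match lay at -719 bp from the start. The promoter thus had a peak in both MCF10A libraries and in 1 of the 2 G12V libraries. MCF10A replicate 1, which had it, had the shortest list, and the cause of the gap in G12V replicate 1 was not tested. With equal list sizes the peaks of both replicate 2 libraries fell below the cut.

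Upstream of LAMB3 were 2 shared regions. The one at -5.1 kb, chr1:209830386-209831446, was at percentile 24.8 and 88.7 in MCF10A and at 74.3 and 94.7 in G12V. The one at -95.5 kb, chr1:209920783-209921807, was at 89.9 and 91.7 in MCF10A and at 95.3 and 95.1 in G12V, the highest mean percentile of all 78 regions, and its nearest start was TRAF3IP3. At -95.5 kb both G12V percentiles were above both MCF10A ones, by a few points, while at -5.1 kb the groups overlapped. With lists of unequal length, a step of a few percentile points does not separate the cell types. The gained region was on the far side of the gene at +75.4 kb, chr1:209749965-209750718, 6718 bp from the start of CAMK1G, with percentiles of 28 and 57.9 in G12V. With equal list sizes, and in the better-scoring 50%, it was kept in 1 G12V library only.

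LAMA3 (chr18:21269417-21536186, plus strand) encodes a long chain from its first start and a short chain, the usual epithelial one, from a start inside the gene. All 10 of its regions were in 1 library each, 6 in MCF10A replicate 2 and 4 in G12V replicate 2. The first start had a peak in G12V replicate 2 at percentile 16.5. The internal start, 183.6 kb downstream, had one in MCF10A replicate 2 at percentile 77.7 (score 121.6), chr18:21452708-21453198, and none elsewhere. Its upstream stretch, shown above, carries TGACTCA at chr18:21452859-21452865 and TGAGTCA at chr18:21452915-21452921. Outside promoters the highest percentile was 41.9, in an intron at +139.3 kb in G12V replicate 2. Both replicate 1 libraries had no peak at the locus, so neither start met the rule for a lost or gained region.

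COL17A1 (chr10:105791044-105845638, minus strand), the transmembrane collagen, had 5 regions and none at any of its 5 starts. The GC content around its first start was 41.9%. Among all genes with under 45% there, 15.3% had a first-start peak in any library. The share was 49.9% at 45 to 55%, 61.2% at 55 to 65% and 56.1% at 65% or more. The part of GC content in the missing COL17A1 peak was not tested. The shared region of the locus was at -35.8 kb over the promoter of SFR1, a DNA repair gene, at percentiles 41.4 and 91.3 in MCF10A and 85.2 and 95.4 in G12V. Within COL17A1, the intron at +31.2 kb had peaks in replicate 2 only, at 22.9 in MCF10A and 68.5 in G12V, with a TGAGTCA match. The other 3 regions were in G12V replicate 2 alone.

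DST (chr6:56322785-56819628, minus strand) is the longest of the 7 genes and makes several plakin forms from starts spread over it. Of its 20 regions, 18 were inside the gene. The shared promoter region, chr6:56407213-56408292, belonged to starts at 412.0 kb (transcript DST-232) and 412.6 kb (DST-203) into the gene, with percentiles of 86.5 and 94.5 in MCF10A and 84.2 and 96.7 in G12V. The promoter at the first start, which is also that of the neighbour BEND6, had peaks in replicate 2 only, at 64.1 in MCF10A and 79.3 in G12V. So did the promoter region at +110.5 kb, at 47.9 in MCF10A and 58.3 in G12V. The starts near +312 kb and those at 102.9 kb had no peak in any library.

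Inside DST, an intronic region at +16 kb, chr6:56803213-56804115, was shared, at 55.6 and 92.3 in MCF10A and at 40.7 and 91.9 in G12V. The values followed the replicate number and overlapped between cell types. The gained intronic region at +239.7 kb, chr6:56579596-56580359, had percentiles of 13.3 in G12V replicate 1 and 82.5 in G12V replicate 2. It remained gained with equal list sizes, and was in G12V replicate 2 alone in the better-scoring 50%. The non-promoter region with the highest mean percentile was at -58.9 kb, in G12V replicate 2 alone, at 72.4.

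PLEC (chr8:144989321-145050902, minus strand), the plakin plectin, had the densest locus of the 7 with 15 regions, 7.5 per 100 kb. Of all genes, 99.1% had as many per 100 kb or fewer. It has 13 annotated starts in the first 37.1 kb, over which lay 6 promoter regions, and no start had a peak in both libraries of a cell type. Of the 6, 4 were in MCF10A replicate 2 alone, at percentiles 0.438, 8.57, 9.02 and 44, and the first start was in G12V replicate 2 alone at 14.7. The canonical start was in MCF10A replicate 1 at 56 and in G12V replicate 2 at 54.4. The shared region at +39.9 kb, over coding exons, was weak, at 11.3 and 52.3 in MCF10A and at 2.02 and 34.6 in G12V. Outside the promoters of PLEC, the highest mean percentile was at the promoter of GPAA1 at -86.5 kb, at 83.6 in MCF10A replicate 2 and 37.3 in G12V replicate 2.

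**Figure D3:**
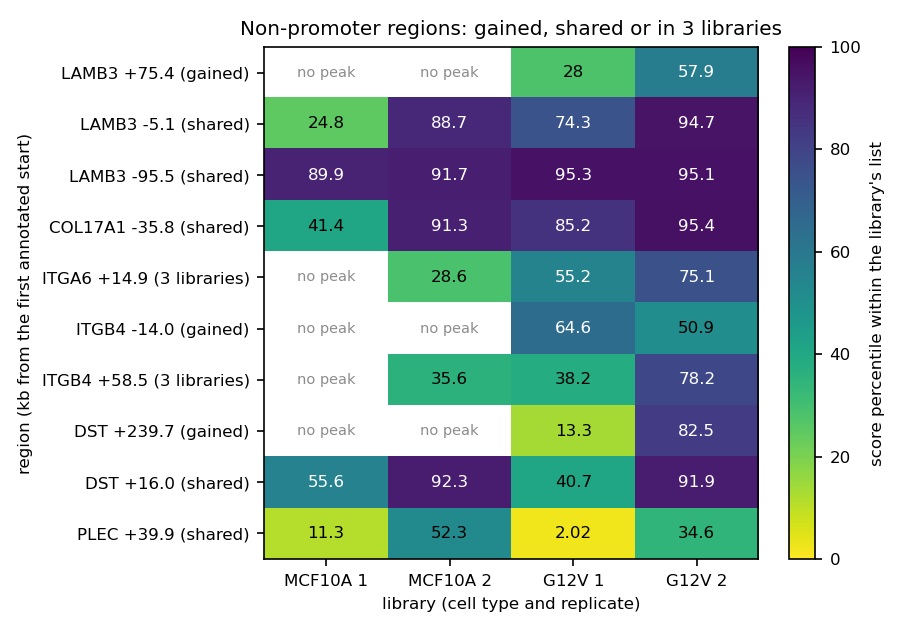
Score percentile in each library (columns) of the regions outside the 7 genes' promoters that were gained, shared or in 3 libraries (rows, with the distance in kb from the first start). The 3 gained rows have no MCF10A peak, and the LAMB3 region at -95.5 kb is at 89.9 or higher in all columns.

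To set the libraries on one scale, the peaks at each locus were divided by the length of that library's list. The 7 loci together held 8.54 and 11.3 peaks per 10000 in MCF10A and 12.8 and 10.7 in G12V, from 11, 39, 18 and 50 peaks, and the cell types overlapped. PLEC had 2.33 and 2.61 per 10000 in MCF10A and 1.42 and 1.29 in G12V, a difference of -1.11 (means 2.47 ± 0.201 and 1.35 ± 0.0981, SD, n = 2). The G12V values were below both MCF10A values (exact two-sided permutation test, p = 0.333, the smallest that 2 libraries against 2 can give, so that no difference here could pass 0.05). ITGB4 had 0.776 and 0.87 in MCF10A and 2.85 and 1.07 in G12V, again with no overlap and a difference of 1.14, which was 0.248 without G12V replicate 1 and 2.03 without G12V replicate 2.

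COL17A1 had 0.776 and 0.58 in MCF10A and 1.42 and 1.07 in G12V, a difference of 0.57, but the first G12V value counts 2 peaks that both lie in the SFR1 promoter region. At LAMB3 the values were 3.1 and 1.45 against 4.27 and 2.36, at DST 1.55 and 2.9 against 2.14 and 3.64, at LAMA3 0 and 1.74 against 0 and 0.857, and at ITGA6 0 and 1.16 against 0.712 and 0.429. In these 4 loci the cell types overlapped, with exact permutation p of 0.667, 0.667, 1 and 1. The LAMB3 difference of 1.04 was 0.0796 without G12V replicate 1 and 2 without the other G12V library, and 0.211 or 1.86 when MCF10A replicate 2 or 1 was left out. None of the 3 loci that stood apart did so with equal list sizes: MCF10A 1, MCF10A 2, G12V 1 and G12V 2 then held 3, 1, 1 and 0 peaks at PLEC, 1, 1, 4 and 1 at ITGB4, and 1, 1, 2 and 1 at COL17A1. Directions were mixed, with G12V higher at 4 loci and lower at 3, and of the latter ITGA6 differed by only -0.01 and changed sign with equal list sizes.

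**Figure D4:**
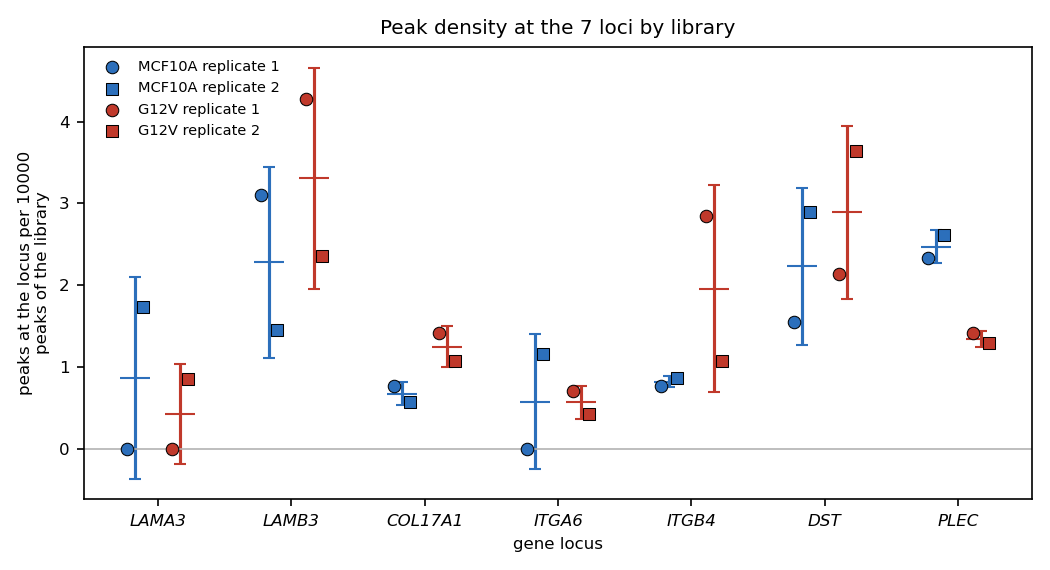
Peaks at each locus per 10000 peaks of the library (y axis) by gene (x axis). Circles are replicate 1 and squares replicate 2, blue is MCF10A and red G12V, and bars are the mean with the SD of 2 libraries. The groups stand apart at COL17A1, ITGB4 and PLEC, with G12V lower at PLEC, but at none of these 3 with equal list sizes.

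Motif content was compared with all regions over windows of 150 bp, both strands searched. AP-1 matches were in 16 of the 78 windows (20.5%, against 15.9% of all regions), with 3 each at LAMA3, ITGB4 and DST. TEAD matches were in 5.13% (3.28% of all), the grainyhead motif (AACCAGTT, AACCGGTT, AACTAGTT or a reverse complement) in 1.28% (0.524%), the p53 family motif in 2.56% (1.26%) and the CTCF motif in 6.41% (6.56%). The windows had a median GC content of 55% against 48.7%, and the part of GC in the motif shares was not tested. Regions had a median width of 516.5 bp against 547 bp.

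A further list held 21 genes that work with the members, mostly of the basement membrane and its receptors. It includes KRT5 and KRT14, which were also among the epithelial markers above. Promoters had peaks for 5, 10, 2 and 10 of the 21 in MCF10A 1, MCF10A 2, G12V 1 and G12V 2. Of all genes, 24.8%, 48%, 26.8% and 50.6% had one. Neighbouring type IV collagen genes that share a promoter region were each counted, so these genes are not independent. The integrin chain ITGB1 was the 1 with peaks in all 4, 9 had none, and none was gained or lost. Gained regions lay at 3 loci, of LAMC1, COL7A1 and NID1, and lost regions at 2, of NID1 and HSPG2, and 16% and 9.99% of all genes had one, so these counts stood near the background. The gained region of LAMC1, a laminin chain gene, lay in the gene body at +116.4 kb, at percentiles 33.7 and 43.2 in G12V. That of the anchoring fibril collagen COL7A1 lay at -40.2 kb, 51 bp from a start of the neighbour SLC26A6, at 15.1 and 0.116. The nidogen gene NID1 had a lost region at -18.7 kb, at 7.19 and 70 in MCF10A, and a gained one at -44.5 kb, at 70.9 and 38.4 in G12V. The lost region of the perlecan gene HSPG2 lay at -19.9 kb, at 20.4 and 45.3.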

How the data were processed

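ATAC-seq peak lists of 4 libraries were analysed, 2 of MCF10A and 2 of G12V cells. Per the study's methods the authors aligned reads to hg19 with Bowtie, discarded reads with more than 1 position, corrected read starts for the Tn5 insertion offset and ran MACS on them. Each deposited list gives peak positions and the MACS score, in which a p-value of 0.0001 equals 40, the lowest score found. The study pooled replicates for its own calls, but the deposited lists are per library. Because scores grow with depth, they entered only as percentiles within a list.

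Chromosomes 1 to 22 and X were used (12888, 34463, 14042 and 46673 peaks), and the 14 to 25 peaks on Y left out. Peaks overlapping by 1 bp or more were merged. Starts came from GENCODE release 44 lifted to GRCh37, all protein-coding transcripts included. Motifs were sought in the 150 bp at the middle of the best peak, with no mismatch for AP-1, TEAD and grainyhead, up to 3 for the p53 family and 1 for CTCF. Locus values were compared by exact two-sided permutation tests over libraries, and the threshold was 0.05. All 7 genes were named, with every promoter, gained, lost and shared region and the region outside its own promoters with the highest mean percentile, shared ones included; of the 21 pathway genes, those with a gained or lost region, or a promoter peak in both libraries of 1 cell type only, were named, and ITGB1 was added after its values were seen. Some items are not reported here. The members and lists were chosen with earlier results of these data known. PECAM1 was left out of the endothelial markers because the annotation used did not hold it under that name. As alternatives, lists were cut to their better-scoring 50% or to equal sizes (12888 best peaks), overlaps, windows and start sets were varied, each library was left out, and classes were called within replicate numbers. Simulated data served to test the merging, the classes and the motif search. Python 3.11.15, numpy 2.4.6, scipy 1.17.1, pysam 0.24.0 and matplotlib 3.10.9 were used.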

Additional observations from a re-analysis of the deposited data

How the results depend on the processing

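Presence of a peak depends on the length of a list, and the labels give the libraries of both cell types the same replicate numbers without saying that a number marks a shared day or culture. The deviations of same-numbered libraries from their cell type's mean correlated at -0.113 over all regions and at 0.0704 with equal list sizes. With the number as a replicate block, gained regions were 12 within number 1 and 34 within number 2 (reported as 3), lost ones 5 and 22 (reported as 1), shared ones 16 within number 2 (reported as 6), and genes with a promoter peak in every library 4 within number 2 (reported as 1). With crossed replicate numbers, chosen after seeing the data, the counts were 41 gained, 2 lost and 3 promoters for MCF10A replicate 1 with G12V replicate 2, and 8 gained and 30 lost for the other pair. In the genome, 75.2% of regions were gained and 6.49% lost for the first pair, and 11.1% and 64.7% for the other. Under the paired test the locus differences were the same values, with exact permutation p of 0.5 or 1. Leaving out 1 library gave 3 to 32 gained regions (32 without G12V replicate 1, 8 without G12V replicate 2, 5 without MCF10A replicate 2), 1 to 21 lost (21 without MCF10A replicate 1, 2 without MCF10A replicate 2 or G12V replicate 2) and 1 to 3 promoters (3 without G12V replicate 1). Of all regions in the genome, 39% were gained without G12V replicate 1 and 18.5% lost without MCF10A replicate 1. Without MCF10A replicate 2, 11.4% were gained and 6.03% lost, and without G12V replicate 2, 9.86% were gained and 11.1% lost. Within numbers 1 and 2, 40.3% and 41.7% were gained and 34.7% and 19.6% lost, and 38.6% were shared within number 2. With a peak in either replicate, 40.9% were gained and 20.8% lost. A peak in either replicate sufficed for 37 gained and 22 lost regions. The better-scoring 50% of each list left 0 lost and 2 shared, where 2.44% of all regions in the genome were lost and 8.63% shared. The gene body alone held 1 gained and 3 shared. The count of promoters was 0 with the first start or the canonical start alone. With equal list sizes 3 regions were gained, but 1 of the 3, at DST, was a region reported as gained; the others were at ITGA6 and at the H3-3B promoter.

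Several locus differences changed sign. ITGA6, reported at -0.01, was 0.636 in the better-scoring 50%, 0.776 with equal list sizes, 0.135 within 50 kb, 0.28 in the gene body and -0.59 to 0.57 with 1 library left out. DST was -0.425 in the better-scoring 50%, -0.115 in the start window and -0.0903 to 1.42 with 1 library left out, LAMA3 was -1.31 to 0.429 with 1 library left out, and ITGB4 was -0.145 in the gene body and 0.248 to 2.03 with 1 library left out. LAMB3 kept its sign at 0.0796 to 2 with 1 library left out. With equal list sizes COL17A1, ITGB4 and PLEC no longer separated the cell types (exact permutation p of 1, 1 and 0.667), while ITGA6 did, with 0 peaks in each MCF10A and 1 in each G12V library. The cause of these changes was not tested. The lists hold no read counts, so the part of depth in the calls was not tested.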
